A study of Saccharomyces cerevisiae with 12 samples.

Results

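The genes described here are 10 nuclear genes of leucine and branched-chain amino acid synthesis in *Saccharomyces cerevisiae*, *ILV2*, *ILV6*, *ILV5*, *ILV3*, *BAT1*, *LEU4*, *LEU9*, *OAC1*, *LEU1* and *LEU3*, matched by symbol among the 6302 genes of a 5PSeq count table. They were chosen with results of these libraries in view, and the values they are taken here to be selected on are the fold changes between strains with and without *HEL2*, in which *LEU1* and *OAC1* were low, so every comparison of strains with and without *HEL2* is given below as a description. Where such a comparison lists how many of the 10 genes passed a threshold, the choice of the genes entered into that number and nothing is read from it. All 10 genes passed the filter for low counts, *OAC1* only through strains with *HEL2*, where it was high. 5PSeq sequences mRNA molecules that carry a phosphate at the 5′ end, which arise as transcripts are degraded, and an individual read marks the end of such a decay intermediate. The reads were not divided by mRNA level here, so that less mRNA and less decay of an mRNA cannot be told apart.

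All strains were BY4741 *MATa* carrying *his3*∆1, *leu2*∆0 and *ura3*∆0, grown in YPD, a rich medium that supplies amino acids, at 30°C with shaking at 200 rpm, and each had 3 libraries. The wild type also carried *met15*∆0, which the labels list for no other strain. In *hel2*∆ the gene was replaced by the *LEU2* marker (*hel2*∆::*LEU2*). The strain *ncs2*∆*elp6*∆ carried *ncs2*∆::*HIS3MX* and *elp6*∆::*URA3*, and the triple mutant *ncs2*∆*elp6*∆*hel2*∆ carried all 3 replacements. Hel2 is a ubiquitin ligase that recognises collided ribosomes. Ncs2, in the Urm1 pathway, and Elp6, in Elongator, are needed to modify the wobble uridine (U34) of a set of tRNAs. Loss of *HEL2* and gain of *LEU2* always went together, as did loss of *NCS2* and *ELP6* and gain of *HIS3MX* and *URA3*, so the effects of deletion and marker cannot be told apart, and neither can that of *MET15* in comparisons with the wild type.

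Valine, isoleucine and leucine are built in yeast by a shared set of mitochondrial enzymes. *ILV2* encodes the catalytic and *ILV6* the regulatory subunit of acetohydroxyacid synthase, *ILV5* the reductoisomerase, *ILV3* the dihydroxyacid dehydratase, and *BAT1* the mitochondrial branched-chain aminotransferase. Leucine then needs its own branch, in which the α-isopropylmalate synthases Leu4 and Leu9 commit carbon to leucine, Oac1 carries oxaloacetate and α-isopropylmalate across the inner mitochondrial membrane, and the cytosolic enzymes Leu1 (isomerase) and Leu2 (dehydrogenase) complete the chain. Leu3 is a transcription factor that activates genes of the pathway when it binds α-isopropylmalate, and cells without *LEU2* cannot complete leucine synthesis and have to take leucine up.

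In the S288C assembly R64 (sacCer3 in the labels) the coding sequences lie apart from each other, and the RefSeq table lists no gene that overlaps any of the 10. *ILV2* (YMR108W) is at chrXIII:484084-486147, *ILV6* (YCL009C) at chrIII:104619-105548, *ILV5* (YLR355C) at chrXII:838066-839253, *ILV3* (YJR016C) at chrX:464451-466208 and *BAT1* (YHR208W) at chrVIII:517532-518713. *LEU4* (YNL104C) is at chrXIV:424895-426754, *LEU9* (YOR108W) at chrXV:523027-524841, *OAC1* (YKL120W) at chrXI:217344-218318, *LEU1* (YGL009C) at chrVII:476313-478652 and *LEU3* (YLR451W) at chrXII:1036093-1038753. *LEU4* and *LEU9* are paralogs, as are *BAT1* and *BAT2*, and reads were deposited only where they mapped to a single place, so stretches shared by such copies carry no count.

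Library totals ran from 104202 to 415323 reads with a median of 215412. *HEL2* had between 10 and 40 reads in each library with the gene and between 0 and 5 in each library labelled as deleted. *LEU2* was too low to be tested, with a sum of 10 reads in *hel2*∆ and 7 in the triple mutant but 1 read in each of the strains without the marker, and every library of the strains labelled with the marker had at least 1 of these reads. Levels below are TMM-scaled CPM, the reads of a gene relative to the size of its library, with SD over 3 libraries, and tests are edgeR quasi-likelihood F tests fitted to the 12 libraries jointly. Their p-values were adjusted by Benjamini-Hochberg across 3378 genes. Nothing in the labels says that replicates were separate cultures, so p-values measure only the spread between these libraries, which may be technical.

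The highest level per kilobase of coding sequence in the wild type was that of *ILV5*, at 975 CPM per kb. *BAT1* at 824 and *LEU9* at 709 CPM per kb followed and overlapped each other over the 3 libraries. *ILV2* stood at 433 CPM per kb, above *LEU4* (232), *LEU1* (206), *ILV6* (189) and *ILV3* (173), of which each overlapped its neighbour. The carrier *OAC1* (64.1 CPM per kb) and the regulator *LEU3* (27.7 CPM per kb) were lowest. *ILV5* was also first in the other 3 strains (overlapping *BAT1* in *hel2*∆), whereas the remaining order was not kept, and *LEU9* stood eighth of the 10 in *ncs2*∆*elp6*∆ at 114 CPM per kb, while *LEU1* stood eighth in *hel2*∆ at 79.7 CPM per kb and in the triple mutant at 81.7 CPM per kb.

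**Figure D1:**
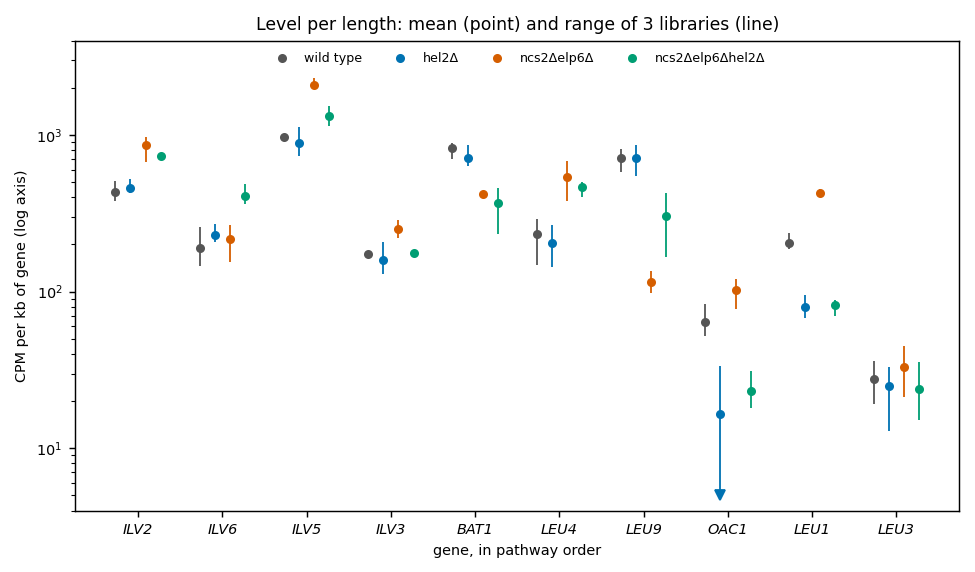
TMM-scaled CPM per kilobase of coding sequence (log axis) for the 10 genes in the 4 strains, with a point for the mean and a line for the range of 3 libraries. *ILV5* led in every strain, *LEU9* dropped from 709 in the wild type to 114 in *ncs2*∆*elp6*∆, and the triangle at the lower edge marks the *hel2*∆ library in which *OAC1* had 0 reads.

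As a share of library totals, without TMM scaling, the 10 genes together took 0.529% ± 0.0300 of the reads in the wild type and 0.469% ± 0.0410 in *hel2*∆ (SD, n = 3). They took 0.845% ± 0.0428 in *ncs2*∆*elp6*∆ and 0.589% ± 0.0138 in the triple mutant (SD, n = 3). The joint share was thus highest in *ncs2*∆*elp6*∆, but the individual genes did not move alike.

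**Figure D2:**
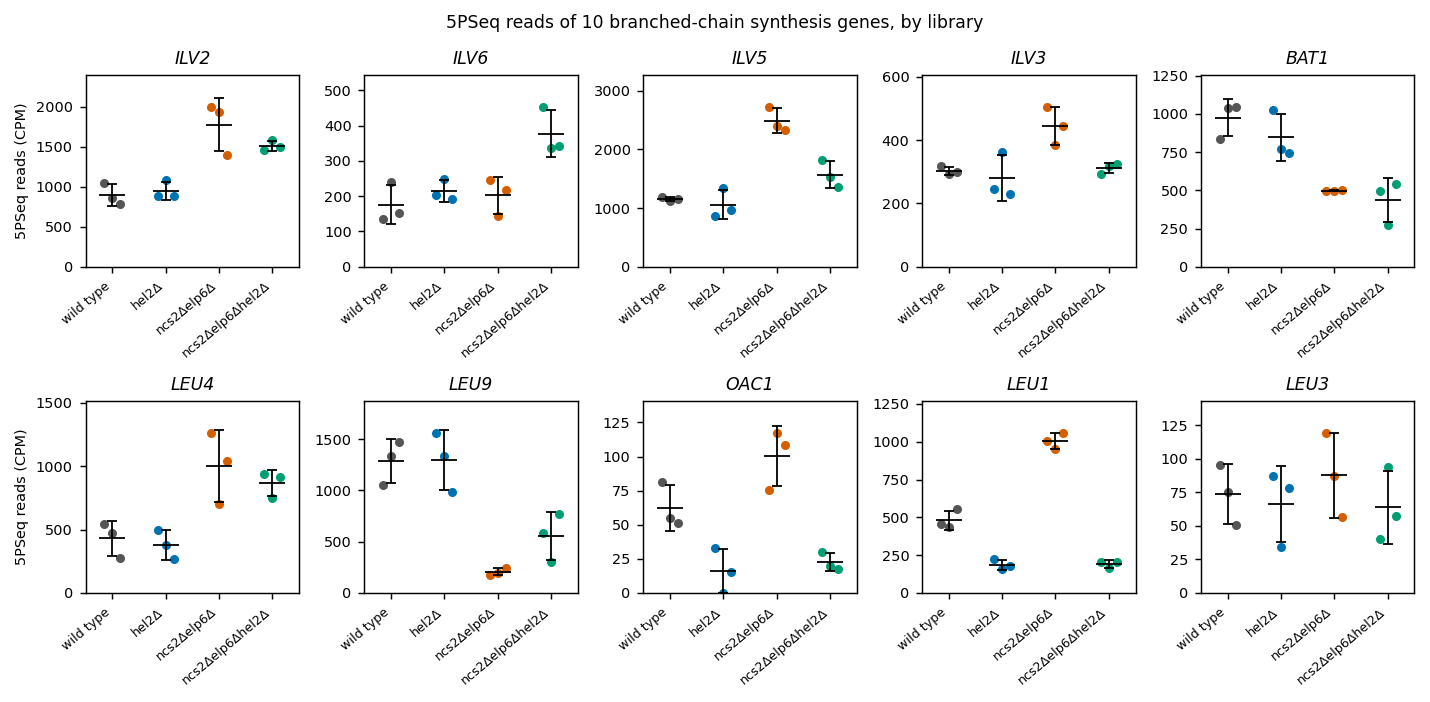
TMM-scaled CPM of each gene, in a panel of its own, with a point for every library, the mean and the SD (n = 3) in the 4 strains. *LEU1* and *OAC1* were low in both strains without *HEL2*, *LEU9* and *BAT1* were low in both strains without U34 modification, and *LEU3* overlapped in all 4 strains.

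*LEU1*, the isomerase, was the clearest of the genes with fewer reads in strains without *HEL2*. It had 454, 438 and 553 CPM in replicates 1, 2 and 3 of the wild type and 224, 159 and 177 CPM in *hel2*∆. It had 1003, 951 and 1059 CPM in *ncs2*∆*elp6*∆ against 202, 164 and 208 CPM in the triple mutant. No library without *HEL2* reached the lowest library with it, and the 2 strains without *HEL2* had nearly the same mean level, 187 ± 33.5 and 191 ± 24.0 CPM (SD, n = 3). The log2 fold change was −1.33 (SE 0.22, 95% interval −1.79 to −0.88) from wild type to *hel2*∆. From *ncs2*∆*elp6*∆ to the triple mutant it was −2.42 (SE 0.21, interval −2.84 to −1.995). Counted from the lowest fold change of 3378 genes, *LEU1* ranked 19 and 3 in these comparisons.

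*OAC1*, the mitochondrial carrier that precedes the cytosolic steps, showed the same order at a much lower level. It had 81.7, 54.7 and 51.0 CPM in the wild type and 32.8, 0 and 15.6 CPM in *hel2*∆, and the last 3 values rest on 6, 0 and 3 reads. It had 75.6, 117 and 109 CPM in *ncs2*∆*elp6*∆ and 30.3, 19.6 and 17.7 CPM in the triple mutant, where the values rest on 3, 9 and 4 reads. Here too no library without *HEL2* reached any library with it. Since *OAC1* passed the low-count filter only through the strains with *HEL2*, nothing is read from that. The log2 fold changes were −1.72 (SE 0.53, interval −2.80 to −0.64) and −2.27 (SE 0.41, interval −3.11 to −1.43), which placed *OAC1* at ranks 3 and 4 from the lowest. The former value moved to −2.54 without *hel2*∆ replicate 1 and to −1.41 without *hel2*∆ replicate 2, the library with 0 reads, or without wild type replicate 1.

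The other 8 genes stayed between −0.20 (*LEU4*) and 0.28 (*ILV6*) on the log2 scale from wild type to *hel2*∆. In that comparison 0.0888% of all genes tested had an adjusted p under 0.05 (0.0296% higher and 0.0592% lower), and so had *LEU1*, lower, for which the genes were partly chosen. Across all genes 10.2% did not overlap between the strains, and of the 10 *LEU1* and *OAC1* did not, both lower in *hel2*∆. The median log2 fold change was −0.16 for the 10 genes and −0.01 for all genes. *LEU1* no longer passed the threshold without wild type replicate 3 (log2 fold change −1.23), without *hel2*∆ replicate 2 (−1.27) and without *hel2*∆ replicate 3 (−1.25).

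From *ncs2*∆*elp6*∆ to the triple mutant, 5.68% of all genes passed the threshold (4.68% higher and 1.01% lower), and of the 10 genes *LEU1* and *OAC1* were past it as lower and *LEU9* and *ILV6* as higher, a number that the choice of the genes set in part. *LEU9* had 179, 199 and 246 CPM in *ncs2*∆*elp6*∆ and 585, 303 and 769.8 CPM in the triple mutant, a log2 fold change of 1.38 (SE 0.29, interval 0.79 to 1.97). *ILV6* had 247, 144 and 217 CPM against 454, 336 and 341 CPM, a log2 fold change of 0.87 (SE 0.24, interval 0.38 to 1.36). Neither gene overlapped between these strains. *ILV5* at −0.67 (SE 0.21) and *ILV3* at −0.50 (SE 0.20) also did not overlap, and the other 4 genes lay between −0.28 and −0.21. The share of all genes without overlap was 22.2%, and the median log2 fold change was −0.25 for the 10 genes and 0.03 for all genes. *LEU9* no longer passed the threshold without triple mutant replicate 3 (1.00), nor did *ILV6* without *ncs2*∆*elp6*∆ replicate 2 (0.62) or 3 (0.93) and without triple mutant replicate 1 (0.75) or 3 (0.93).

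**Figure D3:**
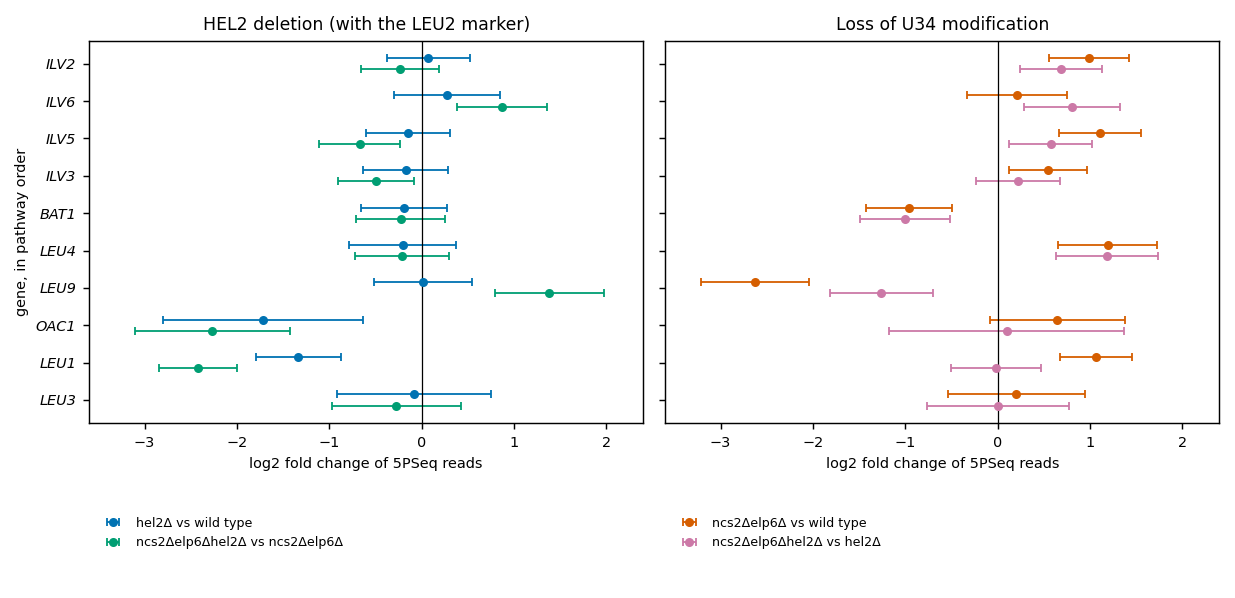
Log2 fold changes of the 10 genes with 95% intervals in the 4 comparisons of strains. *LEU1* lay at −1.33 and −2.42 when *HEL2* was deleted and at 1.06 and −0.02 when U34 modification was lost, and *LEU9* lay at −2.63 and −1.26 in the latter pair.

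Loss of U34 modification was compared in the presence and in the absence of *HEL2*, and these comparisons have no strain in common. Their libraries also entered the comparisons on which the genes were chosen. The tests of the 10 genes below are thus not independent of that choice. With *HEL2*, 30.1% of all genes tested passed the threshold, 13.4% higher and 16.7% lower in *ncs2*∆*elp6*∆. Of the 10 genes *ILV2*, *ILV5*, *ILV3*, *LEU4* and *LEU1* rose, *BAT1* and *LEU9* fell, and *ILV6*, *OAC1* and *LEU3* did not pass the test. The median log2 fold change was 0.59 for the 10 genes and 0.04 for all genes, and 7 of the 10 did not overlap between the strains, as against 43.5% of all genes.

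Of the 5 genes of the common chain, *ILV2*, *ILV5* and *ILV3* rose, *BAT1* fell and *ILV6* did not pass the test. *ILV2* had 1048, 855 and 779 CPM in the wild type and 2003, 1939 and 1393 CPM in *ncs2*∆*elp6*∆, and rose by 0.99 on the log2 scale (SE 0.21, edgeR adjusted p = 8.18e-04). *ILV5* had 1193, 1122 and 1158 CPM against 2731, 2405 and 2338 CPM, and rose by 1.10 (SE 0.21, edgeR adjusted p = 3.00e-04). The lowest *ncs2*∆*elp6*∆ library thus lay above the highest wild type library for both genes. *ILV3* rose by less, from 303 ± 12.4 to 445 ± 60.2 CPM (SD, n = 3), a log2 fold change of 0.54 (SE 0.20, edgeR adjusted p = 0.0471). This call held without *ncs2*∆*elp6*∆ replicate 2 and was lost without any other library of the 2 strains, with log2 fold changes between 0.44 and 0.64 and adjusted p of up to 0.156. Leaving out a library outside the comparison also lost the call of *ILV3* for *hel2*∆ replicate 1 and triple mutant replicates 1 and 3 (edgeR adjusted p = 0.0567, 0.0585 and 0.0511). *ILV6* had 176 ± 55.5 CPM in the wild type and 203 ± 52.7 CPM in *ncs2*∆*elp6*∆ (SD, n = 3), and the interval of its log2 fold change ran from −0.33 to 0.75 (edgeR adjusted p = 0.582).

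In the leucine branch *LEU4* had 544, 472 and 277 CPM in the wild type and 1262, 701 and 1038 CPM in *ncs2*∆*elp6*∆. Its log2 fold change was 1.19 (SE 0.26, edgeR adjusted p = 9.56e-04), and the strains did not overlap. *LEU1* rose by 1.06 (SE 0.19, edgeR adjusted p = 1.18e-04) between the library values given above. The same libraries entered the comparisons on which *LEU1* was chosen. *OAC1* went from 62.5 ± 16.7 to 101 ± 22.0 CPM (SD, n = 3) with overlapping libraries, and its interval ran from −0.08 to 1.38 (edgeR adjusted p = 0.177). For *LEU3* the interval ran from −0.54 to 0.94 (edgeR adjusted p = 0.718), at 73.8 ± 22.2 CPM in the wild type and 87.7 ± 31.5 CPM in *ncs2*∆*elp6*∆ (SD, n = 3).

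*LEU9* and *BAT1* went the other way. *LEU9*, an isopropylmalate synthase like *LEU4*, had 1057, 1334 and 1471 CPM in the wild type and 179, 199 and 246 CPM in *ncs2*∆*elp6*∆. Its log2 fold change was −2.63 (SE 0.28, edgeR adjusted p = 3.89e-07), the furthest from 0 of the 10 genes in this comparison. *BAT1*, the mitochondrial aminotransferase, had 835, 1040.1 and 1049 CPM in the wild type and 494, 497 and 503 CPM in *ncs2*∆*elp6*∆, a log2 fold change of −0.96 (SE 0.23, edgeR adjusted p = 0.00201). Neither overlapped between the strains.

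Without *HEL2*, 14.6% of all genes passed the threshold from *hel2*∆ to the triple mutant, 6.42% higher and 8.14% lower. *ILV2*, *ILV6* and *LEU4* rose and *BAT1* and *LEU9* fell. The median log2 fold change was 0.16 for the 10 genes and 0.05 for all genes, and 6 of the 10 did not overlap, as against 31.9% of all genes.

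*LEU4* had 497, 375 and 265 CPM in *hel2*∆ and 938, 751 and 916 CPM in the triple mutant, and rose by 1.18 (SE 0.27, edgeR adjusted p = 0.00584). *ILV2* had 889.8, 1079 and 879.6 CPM against 1462, 1582 and 1495 CPM, and rose by 0.68 (SE 0.21, edgeR adjusted p = 0.0329). *ILV6* had 202, 249.9 and 193 CPM against 454, 336 and 341 CPM, and rose by 0.80 (SE 0.25, edgeR adjusted p = 0.0343). The strains did not overlap in any of these genes, but the calls of *ILV2* and *ILV6* were lost without any of the 3 *hel2*∆ libraries and without triple mutant replicate 1 or 2, where the log2 fold changes lay between 0.62 and 0.78 for *ILV2* and between 0.69 and 0.90 for *ILV6*. *ILV5* had 868, 1340.5 and 973 CPM against 1815, 1534 and 1363 CPM, which did not overlap either, and its log2 fold change of 0.58 (interval 0.13 to 1.03) did not pass the test (edgeR adjusted p = 0.0775).

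*LEU9* fell also without *HEL2*, from 1561, 1340.5 and 989 CPM in *hel2*∆ to 585, 303 and 769.8 CPM in the triple mutant (log2 fold change −1.26, SE 0.27, edgeR adjusted p = 0.00326). *BAT1* had 1026, 772 and 744 CPM in *hel2*∆ and 494, 275 and 544 CPM in the triple mutant (log2 fold change −1.001, SE 0.24, edgeR adjusted p = 0.00706). Both genes had all libraries of one strain below all of the other. The call of *BAT1* was lost without *hel2*∆ replicate 1 (−0.84, adjusted p = 0.0641) and without triple mutant replicate 2 (−0.74, adjusted p = 0.0755).

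The remaining genes did not pass the test in this comparison. *LEU1* had a log2 fold change of −0.02 with an interval from −0.51 to 0.46 (edgeR adjusted p = 0.967). *ILV3* stood at 0.22 with an interval from −0.23 to 0.67 (edgeR adjusted p = 0.539). The intervals of the genes with the fewest reads were wider, from −1.17 to 1.37 for *OAC1* (edgeR adjusted p = 0.937) and from −0.76 to 0.77 for *LEU3* (edgeR adjusted p = 0.997).

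Whether deletion of *HEL2* changed the reads by different amounts with and without U34 modification was read from the interaction, that is the log2 fold change from *ncs2*∆*elp6*∆ to the triple mutant minus that from wild type to *hel2*∆. It was 1.37 for *LEU9* (SE 0.38, interval 0.57 to 2.16) and −1.09 for *LEU1* (SE 0.30, interval −1.71 to −0.46). The other 8 genes lay between −0.55 (*OAC1*) and 0.59 (*ILV6*). Of all genes 0.0296% were called, and 0 of the 10 were called by edgeR. An unadjusted p under 0.05 was found for 328 of the 3378 genes, 2 of them among the 10 (*LEU1* and *LEU9*), and DESeq2 called 46 genes, among them the same 2. The comparisons that enter this difference are those on which the genes were chosen, so nothing is read from these numbers.

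The paralogs *LEU4* and *LEU9* exchanged their places between strains with and without U34 modification. *LEU9* held 66.0%, 73.9% and 84.2% of the reads of the pair in the wild type and 75.9%, 78.1% and 78.8% in *hel2*∆. It held 12.4%, 22.1% and 19.1% in *ncs2*∆*elp6*∆ and 38.4%, 28.8% and 45.7% in the triple mutant. No library of a strain without U34 modification reached any library of a strain with it. The mean share differed by −56.8 percentage points between *ncs2*∆*elp6*∆ and the wild type and by −39.996 points between the triple mutant and *hel2*∆, each with p = 0.1 in a two-sided exact permutation test, the smallest p that 3 libraries against 3 allow.

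*BAT1* and its cytosolic counterpart *BAT2* fell together, and *BAT1* held 71.98% ± 1.21 of the reads of that pair in the wild type and 79.1% ± 1.71 in *ncs2*∆*elp6*∆ (SD, n = 3; difference 7.10 points, two-sided exact permutation p = 0.1, the smallest possible). Without *HEL2* the shares were 70.4% ± 3.01 in *hel2*∆ and 71.1% ± 4.71 in the triple mutant (SD, n = 3; two-sided exact permutation p = 0.8). The isomerase *LEU1* was also set against *LEU4* alone of the synthases before it. *LEU9*, which these shares leave out, had a mean of 1287 CPM in the wild type and 208 CPM in *ncs2*∆*elp6*∆. Its mean was 1297 CPM in *hel2*∆ and 553 CPM in the triple mutant, so the shares do not set *LEU1* against both synthases. *LEU1* held 53.4% ± 11.6 of the reads of *LEU1* and *LEU4* in the wild type and 50.8% ± 6.64 in *ncs2*∆*elp6*∆, and 33.6% ± 5.57 in *hel2*∆ and 18.03% ± 0.419 in the triple mutant (SD, n = 3). The difference was −2.64 points between *ncs2*∆*elp6*∆ and the wild type (two-sided exact permutation p = 0.8). Between the triple mutant and *hel2*∆ it was −15.6 points (two-sided exact permutation p = 0.1, the smallest possible).

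**Figure D4:**
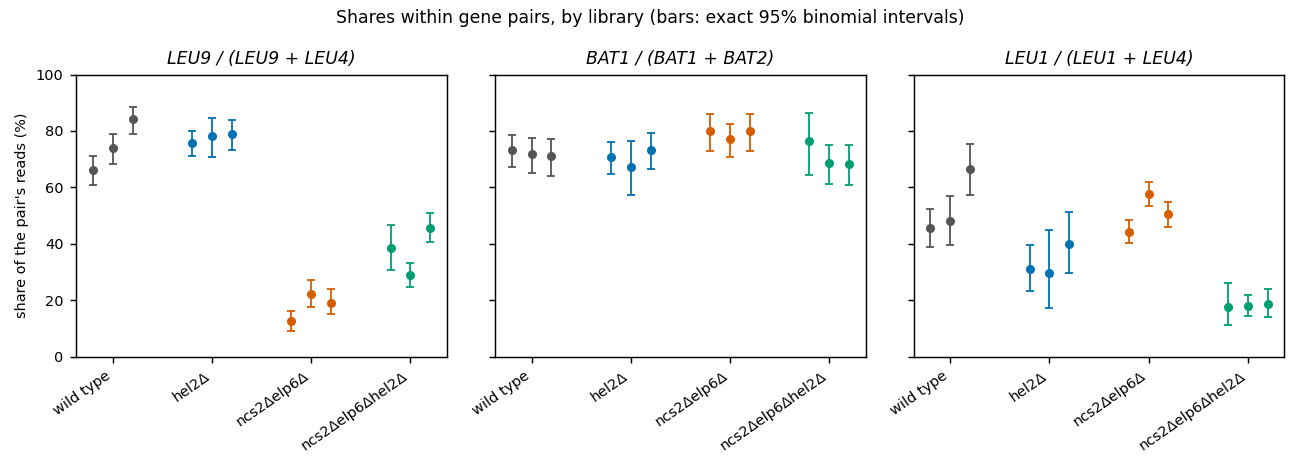
Share of the reads of a gene pair, in percent, that fell on *LEU9* (with *LEU4*), *BAT1* (with *BAT2*) and *LEU1* (with *LEU4*) in each library of the 4 strains, with exact 95% binomial intervals that cover counting error only. *LEU9* held between 66.0% and 84.2% in libraries with U34 modification and between 12.4% and 45.7% in libraries without it.

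Across the 12 libraries the log2 CPM of the genes fell into sets that varied together. Pearson correlations were 0.88 for *OAC1* with *LEU1*, 0.88 for *ILV5* with *ILV3*, 0.87 for *ILV2* with *ILV5* and 0.85 for *ILV2* with *LEU4*. *BAT1* and *LEU9* correlated at 0.81, and *LEU9* opposed *ILV5* (−0.91) and *ILV2* (−0.90). These 12 points share 4 strains and one scaling. Differences between strains with and without *HEL2*, on which the genes were chosen, enter these correlations, so nothing is read from that of *OAC1* with *LEU1*. Once each strain's mean was subtracted, *BAT1* with *LEU9* stood at 0.93, *ILV5* with *ILV3* at 0.66, *OAC1* with *LEU1* at 0.51, *ILV2* with *ILV5* at 0.47 and *ILV2* with *LEU4* at 0.24. *LEU9* then stood at −0.19 with *ILV5* and at −0.41 with *ILV2*. Apart from *BAT1* with *LEU9*, each of these pairs was thus further from 0 over the 4 strains than within them, and *OAC1* rests on few reads. The value for *BAT1* with *LEU9* leans on the triple mutant, where both varied most (SD of log2 CPM 0.52 and 0.68). Its replicate 2 was the lowest library of that strain for both, at 275 CPM for *BAT1* and 303 CPM for *LEU9*.

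**Figure D5:**
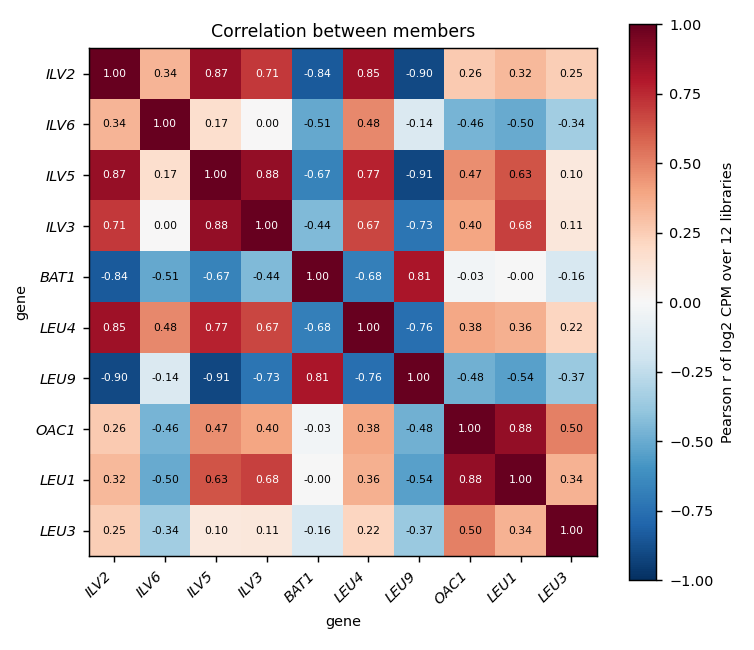
Pearson correlation of log2 CPM between each pair of the 10 genes over the 12 libraries of 4 strains, with the value in each cell. *OAC1* and *LEU1* stood at 0.88, a value that the choice of the genes entered, *BAT1* and *LEU9* at 0.81, and *LEU9* was opposed to *ILV5* at −0.91.

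Ranked by that correlation with *LEU1* over 12 libraries, the non-member genes most like it were *HEL2* (0.89), *FIT3* (0.83), *RGT2* (0.82), *FET3* (0.80) and *PEA2* (0.79). *PEA2* rests on few reads, 7, 5 and 3 in the wild type and 6, 1 and 5 in *hel2*∆, where its means were close (29.3 and 23.4 CPM). *HEL2* is itself deleted in the strains where *LEU1* was low, *FIT3* encodes a cell wall mannoprotein that retains siderophore iron, *FET3* a multicopper oxidase of iron uptake and *RGT2* a glucose sensor. Of the 3378 genes 9.95% correlated with *LEU1* above 0.5, and by Spearman's rank correlation only *HEL2* and *FIT3* stayed among the closest 5. Among the members, with *LEU1* itself at rank 1, *OAC1* ranked 3, *ILV3* 43 and *ILV5* 100, whereas *ILV6* (2926) and *LEU9* (3045) stood near the opposite end. By Spearman's correlation *OAC1* ranked 2, *ILV3* 297.5, *ILV5* 501.5, *ILV6* 3103 and *LEU9* 2782.5. With each strain's mean subtracted, the Pearson correlations of these genes with *LEU1* were 0.51, −0.35, −0.48, −0.09 and 0.68 in the same order. *LEU1*, to which every gene is compared here, was itself chosen on differences between strains with and without *HEL2*. Nothing is therefore read from any place in this order, those of *OAC1* and *HEL2* included.

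Of 8 further genes of branched-chain metabolism, 6 were tested, and *LEU2* and *GDH1*, a glutamate dehydrogenase, had too few reads. *BAP2*, a branched-chain amino acid permease, had 1612 ± 129 CPM in the wild type and 3991 ± 1015 CPM in *ncs2*∆*elp6*∆, and 1226 ± 2.70 CPM in *hel2*∆ and 3063 ± 152 CPM in the triple mutant (SD, n = 3). It rose with loss of U34 modification by 1.31 (SE 0.23, edgeR adjusted p = 9.10e-05) with *HEL2* and by 1.32 (edgeR adjusted p = 5.80e-04) without it. *BAT2* fell by 1.505 (SE 0.26, edgeR adjusted p = 7.86e-05) and by 1.02 (edgeR adjusted p = 0.0123) in the same comparisons. The permease gene *BAP3* rose by 0.62 (SE 0.23, edgeR adjusted p = 0.0464) and by 1.00 (edgeR adjusted p = 0.00906).

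The threonine deaminase gene *ILV1*, which opens the isoleucine branch, the permease gene *TAT1* and the serine and threonine deaminase gene *CHA1* did not pass the test in either comparison. The call of *BAP3* with *HEL2* held without wild type replicate 1 and was lost without any other library of the strains compared. Its log2 fold change was then 0.47 and 0.54 without wild type replicates 2 and 3. It was 0.66, 0.62 and 0.63 without *ncs2*∆*elp6*∆ replicates 1, 2 and 3. Of the libraries outside the comparison, leaving out *hel2*∆ replicate 1 or 2 or triple mutant replicate 1 also lost the call. The calls of *BAP3* and *BAT2* without *HEL2* were lost without *hel2*∆ replicate 1 (0.87 and −0.85) and without triple mutant replicate 2 (0.79 and −0.77). When *HEL2* was deleted, 0 of these 6 genes were called, beside 0.0888% of all genes tested with and 5.68% without U34 modification. Nothing is read from that count at such shares. The log2 fold changes of the 6 genes lay between −0.71 and −0.09 with and between −0.38 and 0.40 without U34 modification.

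Genes of other amino acid pathways were set beside the 10 by their counts and medians. From *ncs2*∆*elp6*∆ to the triple mutant, where 4.68% of all genes tested were called higher and 1.01% lower, of 6 arginine synthesis genes tested 5 were called higher and 0 lower (median log2 fold change 1.24), of 4 histidine genes 3 higher (1.14), of 5 threonine genes 1 higher (0.31), and of 8 lysine genes 2 lower (−0.33), beside the median of −0.25 for the 10 genes above. From wild type to *ncs2*∆*elp6*∆, where 13.4% of all genes were called higher and 16.7% lower, 5 of the 8 lysine genes rose and 1 fell (median 1.23), 3 of the 6 arginine genes rose and 1 fell (1.15), 1 of the 5 threonine genes rose (−0.09) and 1 of the 4 histidine genes fell (0.19), beside 0.59 for the 10. From *hel2*∆ to the triple mutant the medians were −0.18 for lysine, 1.66 for arginine, 0.14 for threonine and 0.65 for histidine genes, beside 0.16. The difference between these lists and the 10 genes was not tested.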

How the data were processed

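The authors deposited raw counts of 5PSeq reads per open reading frame, without normalization, for 12 libraries. Per their processing notes the tools were cutadapt, STAR 2.5.3a, Bowtie 1.2.3 and UMI-tools, with sacCer3 as the build. Sense reads with no more than 1 mismatch had been kept where they mapped uniquely and counted once per random barcode. Columns were matched to strains by the labels.

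After a low-count filter (filterByExpr, minimum 10) and TMM scaling, strain was fitted as the only factor by the quasi-likelihood functions of edgeR 4.0.16 under R 4.3.3 (common dispersion 0.0337), and an adjusted p under 0.05 was counted as a call. Log2 CPM uses a prior count of 2. SEs were obtained by dividing each log2 fold change by the square root of F. A floor of 3 counts equals between 7.22e-04% and 0.00288% of a library, depending on its depth, and covers counting error only. Of 6302 genes 5772 matched RefSeq's R64 table by locus tag. The procedure was tested on simulated data.

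All 10 members are named, with a list of 8 further branched-chain genes and the 5 genes most like *LEU1*. Members and lists were chosen with earlier results of these data known. Alternatives were DESeq2 1.42.0, no low-count filter, other scalings, only the strains compared, a replicate block and each library left out, and the alternatives for *BAP2*, *BAP3* and *BAT2* were chosen after seeing the data. A promoter motif search was not run, since no promoter sequence was used here.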

Additional observations from a re-analysis of the deposited data

How the results depend on the processing

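With each library left out in turn, the count of called genes among the 10 ran from 0 to 1 in *hel2*∆ against wild type, from 2 to 4 in *ncs2*∆*elp6*∆*hel2*∆ against *ncs2*∆*elp6*∆, from 6 to 7 in *ncs2*∆*elp6*∆ against wild type, from 2 to 5 in *ncs2*∆*elp6*∆*hel2*∆ against *hel2*∆ and from 0 to 1 in the interaction. Over all genes tested the counts ran from 1 to 3, 38 to 399, 775 to 1099, 129 to 650 and 1 to 92 in the same order. The shares of all genes called in the main fit were 0.0888%, 5.68%, 30.1%, 14.6% and 0.0296%, and no result about the 10 genes is read from their counts. DESeq2 called 2 in the interaction (*LEU1* and *LEU9*), against 0 by edgeR. The cause of that difference was not tested. With a replicate block the counts among the 10 were 1, 4, 6, 5 and 0 in the same order, to be read beside the shares over all genes given above. Correlations of the deviations of same-numbered libraries ran from −0.21 to 0.27. They were all positive in *ncs2*∆*elp6*∆*hel2*∆ against *ncs2*∆*elp6*∆ (0.085, 0.27 and 0.22). In *ncs2*∆*elp6*∆*hel2*∆ against *hel2*∆ they were all negative (−0.025, −0.059 and −0.21), and in the other comparisons of strains their signs were mixed. What same-numbered libraries had in common was not tested.

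*ILV3* in *ncs2*∆*elp6*∆ against wild type missed the threshold with DESeq2 (adjusted p = 0.110), no filter (0.0719), the block (0.0674) and only the strains compared (0.0612). *BAP3* in that comparison missed it under the same 4 alternatives (0.119, 0.0547, 0.0668 and 0.0570). In *ncs2*∆*elp6*∆*hel2*∆ against *hel2*∆, *ILV2* was lost without the filter (0.0874) and *ILV6* with DESeq2 (0.0847), while *ILV5* was gained with library totals alone (0.0138). In *ncs2*∆*elp6*∆*hel2*∆ against *ncs2*∆*elp6*∆, *ILV6* was not past the threshold with DESeq2 (0.0718), library totals (0.0520) or only the strains compared (0.0539), and *ILV5* was past it with DESeq2 (0.00601) and library totals (0.0192). Values that turned sign in *ncs2*∆*elp6*∆*hel2*∆ against *hel2*∆ were small: *LEU1* with library totals (0.15) and the block (0.014), and *LEU3* with DESeq2 (−0.047), no filter (−0.025) and upper-quartile scaling (−0.028). With a library left out they ran from −0.11 to 0.13 for *LEU1*, from −0.51 to 0.20 for *LEU3* and from −0.21 to 0.92 for *OAC1*, and in *ncs2*∆*elp6*∆ against wild type from −0.063 to 0.52 for *LEU3*.

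Over all genes, *ncs2*∆*elp6*∆*hel2*∆ against *ncs2*∆*elp6*∆ gave 192 calls, 311 without the filter, 126 with only the strains compared and 38 to 399 with a library left out. *ncs2*∆*elp6*∆*hel2*∆ against *hel2*∆ gave 492 and 129 to 650 with a library left out, and *hel2*∆ against wild type gave 3 and 1 to 3. The interaction gave 1, 46 with DESeq2, 26 without the filter and 1 to 92 with a library left out. Scaling by library totals alone moved the median of all genes to 0.29 with *HEL2* and 0.23 without it when U34 modification was lost, and the share of called genes that were higher from 44.6% to 62.9% and from 44.1% to 65.9%. *OAC1* and *LEU3* had the fewest reads, which limits both.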
